A study of Mus musculus with 3 samples.

Results

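The 39 genes described here belong to the integrated stress response and the unfolded protein response. They were taken from a list of symbols in 6 arms, and members and arms were chosen with earlier results of these data known. The arms are the eIF2 kinases with eIF2 itself (5 genes), the stress transcription factors (6), the Atf4 targets (6), the Ire1-Xbp1 branch with ER-associated degradation (7), Atf6 with the ER chaperones (10), and serine and one-carbon synthesis (5). Of the 39 genes, 38 had a probe set among the 18193 genes measured. Eif2s1, the alpha subunit of eIF2, had none that the platform annotation assigns to it alone. Of the 38 genes, 35 lay above the signal floor of 104 on all 3 arrays, and Sesn2, Eif2ak2 and Eif2ak4 did so on 1 array.

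The source was olfactory epithelium of Tgn1-2G mice, a transgenic strain, of both sexes and aged 5 to 8 days after birth. A fluorescence sort gave 1000000 strongly positive cells (GFP+++), 1300000 weakly positive cells (GFP+) and 6800000 cells without fluorescence (GFP-). Every fraction is labelled with the number 32, which reads as pooled mice, and all 3 fractions carry the same transgene. From other work, the transgene is known to drive GFP from regulatory sequence of Neurog1, a proneural factor of olfactory progenitors. GFP can outlast the activity of such sequence, so the sort marks cells by a recent history of the transgene. Each fraction was measured on 1 array. No difference below has a replicate check, a test or a p-value, and the number of arrays limits the precision.

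Against the labels, 7 of 13 markers of immature olfactory sensory neurons (OSN) stood 1.5-fold or more above GFP- in GFP+++. The share of all genes that did so was 9.31%. Among the markers Neurod1 was lower, at a log2 fold of -0.71. The summed signal of the 10 mature OSN markers measured was 54760 (GFP+++), 81301 (GFP+) and 75203 (GFP-). Of 12235 genes compared, 1.92% stood 2-fold or more above GFP- in GFP+++ and 12.4% stood 2-fold or more below it. With each array scaled to a common median, the median log2 fold of all genes was 0.42 instead of 0.0090, and the lower genes made up 48.1% of the calls instead of 86.6%. The 3' to 5' signal ratio of beta-actin, a measure of RNA integrity, lay between 1.31 and 1.46 on the 3 arrays. In sorted fractions measured as bulk RNA, fewer cells of a type and less RNA per cell cannot be told apart.

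The integrated stress response is a switch on protein synthesis. A kinase such as Perk (Eif2ak3), which senses unfolded protein in the endoplasmic reticulum (ER), phosphorylates eIF2, which lowers most translation but raises that of Atf4, Atf5 and Ddit3 (Chop). The unfolded protein response has a pair of further ER sensors: Ire1 (Ern1), which splices Xbp1 mRNA, and Atf6, which is cut in the Golgi and then turns on chaperone genes. In olfactory neurons this machinery has a developmental use. The first odorant receptor protein made in an immature neuron is known to engage Perk, which allows translation of Atf5, and the signal ends once the adenylyl cyclase Adcy3 is made. The regulation is largely translational, and arrays measure mRNA, so neither eIF2 phosphorylation, Atf5 protein nor Xbp1 splicing was measured.

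In textbook accounts, the branches of these responses act through different promoter elements. Such elements were searched on both strands from 250 bases before to 50 bases after the start in RefSeq windows (GRCm38.p6), which held 38 of the 39 genes and no window of Atf6. The core of the C/EBP-ATF response element, the site of Atf4 dimers, was searched as TGATGNAA, which reads TTNCATCA on the other strand. It occurred in 1219 of 27025 genes (4.51%) and in 6 of the 38 stress genes. The stretches that hold it before the start are shown for 4 genes, to set the Atf4 targets Chac1 and Asns beside the transcription factors Atf3 and Nupr1. Each is written 5′ to 3′ in the direction of the gene, with the element in capitals.
Chac1: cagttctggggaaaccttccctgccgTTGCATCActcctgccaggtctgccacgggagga
Asns: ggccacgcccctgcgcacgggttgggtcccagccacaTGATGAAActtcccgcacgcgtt
Atf3: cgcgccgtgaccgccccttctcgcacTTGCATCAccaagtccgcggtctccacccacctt
Nupr1: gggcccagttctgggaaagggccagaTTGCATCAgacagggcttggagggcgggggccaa
These lie at chr2:119351023-119351082 on the + strand (Chac1), and on the - strand at chr6:7693210-7693269 (Asns), chr1:191183410-191183469 (Atf3) and chr7:126625547-126625606 (Nupr1). Chac1, Atf3 and Nupr1 carry the same 8 letters. In Trib3 the letters TTACATCA begin 14 bases after the start.

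The ER stress response element, bound by Atf6 and Xbp1, was searched as CCAAT and CCACG with 9 bases of any kind between them. It was found in 37 of 27025 genes (0.137%). In the Atf6 and chaperone arm 5 of the 9 genes with a window held it (Hspa5, Hsp90b1, Calr, Canx and Pdia6), and in the Ire1-Xbp1 arm 2 of 7 did (Dnajc3 and Syvn1). The other 4 arms had 0. The related ER stress response element II, which is ATTGG, any base and then CCACG, was found in 12 genes (0.0444%), of which Herpud1 is the member. These elements share the letters CCAAT, or ATTGG on the other strand, with CCACG. The core of the unfolded protein response element, TGACGTGG, was in 193 genes (0.714%) and in 0 of the 38. The stretches below show the elements of the chaperone genes, of Dnajc3 and of Herpud1, which holds a C/EBP-ATF core as well.
Hspa5: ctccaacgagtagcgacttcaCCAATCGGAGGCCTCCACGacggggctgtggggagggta
Hsp90b1: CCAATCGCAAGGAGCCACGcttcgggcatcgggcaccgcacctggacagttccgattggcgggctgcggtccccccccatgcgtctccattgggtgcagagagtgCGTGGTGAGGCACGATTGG
Calr: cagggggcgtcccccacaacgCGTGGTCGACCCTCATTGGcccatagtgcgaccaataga
Canx: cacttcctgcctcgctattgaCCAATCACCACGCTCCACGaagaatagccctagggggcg
Pdia6: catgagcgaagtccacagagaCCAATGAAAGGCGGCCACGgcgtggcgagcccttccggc
Dnajc3: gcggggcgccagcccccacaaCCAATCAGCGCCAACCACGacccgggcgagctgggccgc
Herpud1: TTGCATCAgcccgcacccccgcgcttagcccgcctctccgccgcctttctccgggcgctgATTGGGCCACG
The stretches lie on the + strand at chr2:34772004-34772063 (Hspa5), chr12:17266470-17266529 (Pdia6), chr14:118937806-118937865 (Dnajc3) and chr8:94386317-94386387 (Herpud1). On the - strand they lie at chr10:86705533-86705656 (Hsp90b1), chr8:84847055-84847114 (Calr) and chr11:50325780-50325839 (Canx). Hsp90b1 has the element in both directions. A match describes these letters and is not evidence of binding.

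In GFP+++ against GFP-, the arms parted. Of the Atf4 targets 3 of 6 were higher by 2-fold or more, the ER chaperones and most of the Ire1-Xbp1 arm lay near 0, and 3 of 5 serine and one-carbon genes were lower by 2-fold or more. In all, 3 of 38 genes (7.89%) were higher by 2-fold or more, against 1.92% of all genes, and 4 of 38 (10.5%) were lower by as much, against 12.4%. The share of lower genes was thus near that of all genes. Among the 3 higher genes, Sesn2 passed the floor in GFP+++ alone, so its fold could only lie above 0. At 1.5-fold, 8 genes (21.1%) were higher, against 9.31% of all genes, and 5 (13.2%) were lower, against 20.5%. With median scaling the split at 2-fold was 8 higher against 2 lower, where 1129 of all 12184 genes were higher and 1045 lower. The error of an array fold was taken from genes with several probe sets, as the pooled SD of their log2 folds within a gene, 0.30 for this comparison over 4633 genes. The spread between mice or sorts is not part of it.

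**Figure D1:**
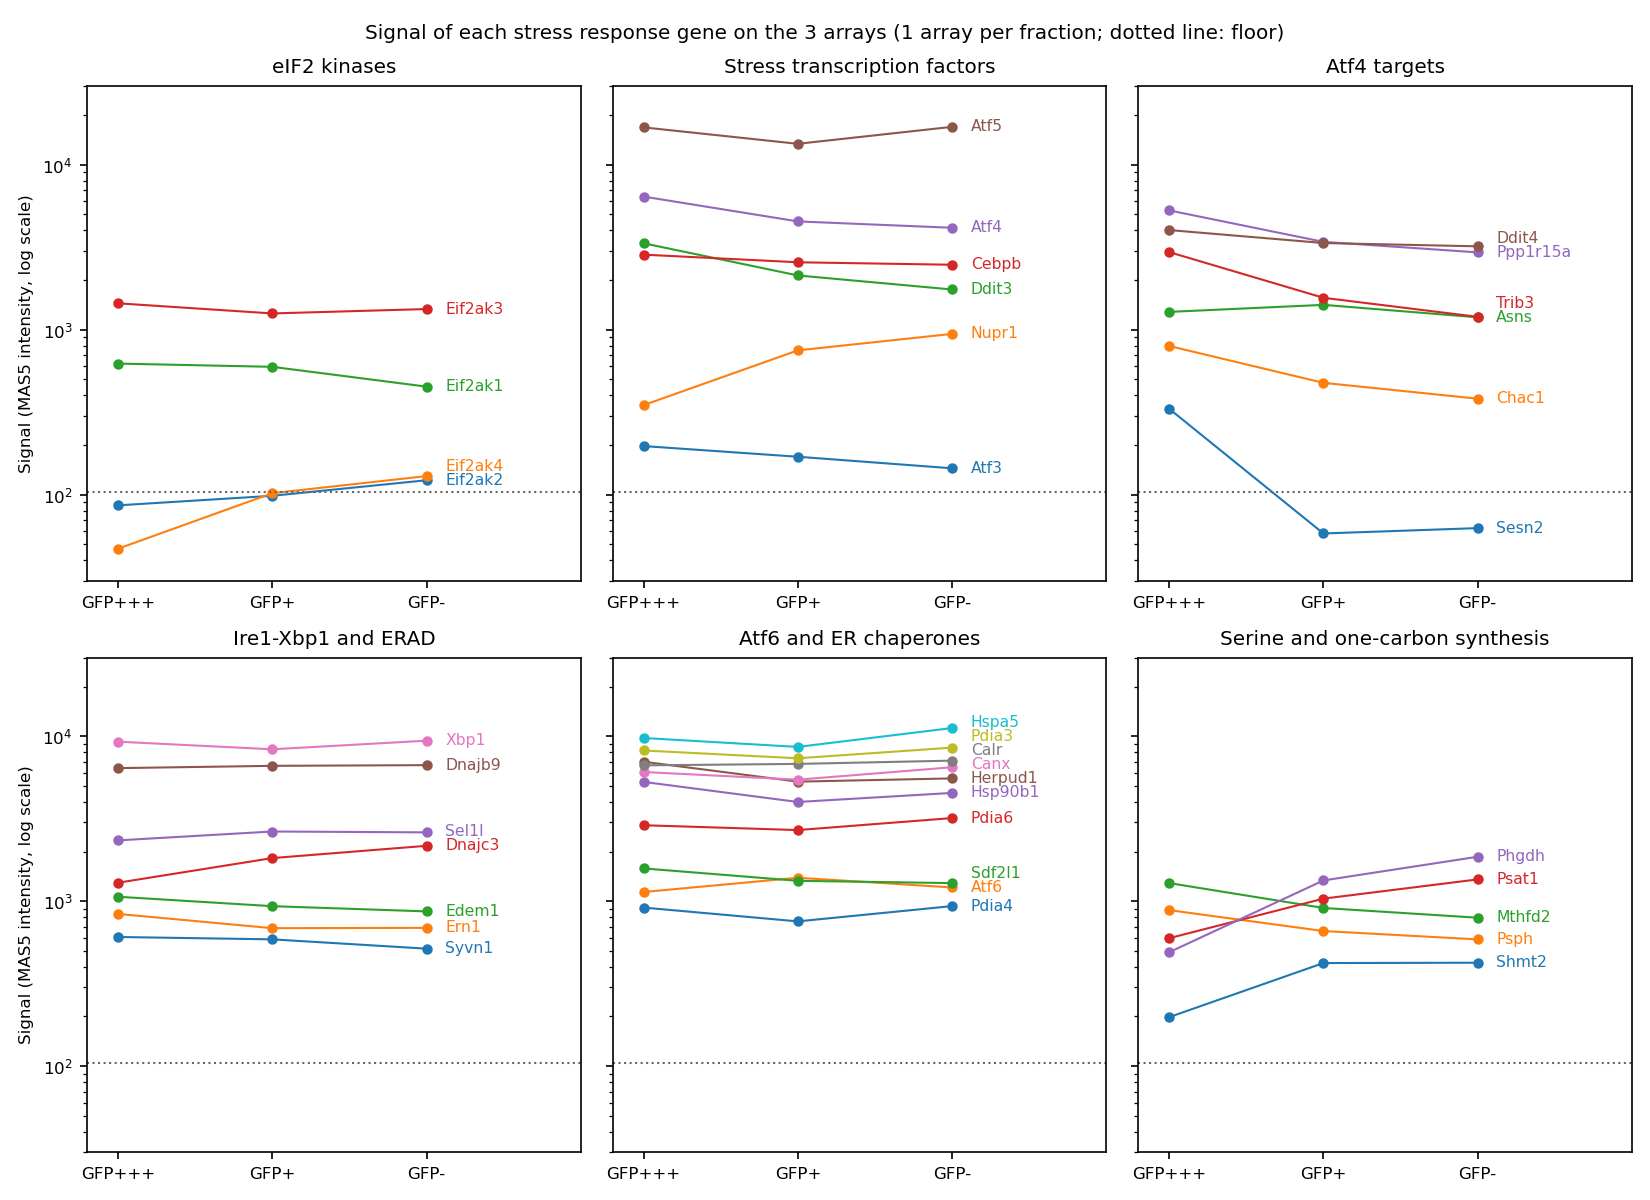
Signal of the 38 measured genes (y axis, MAS5 intensity, log scale) in the GFP+++, GFP+ and GFP- fractions (x axis), 1 point per array and 1 panel per arm, with the floor of 104 dotted. Trib3, Chac1, Ppp1r15a and Ddit3 slope down from GFP+++ to GFP- and Phgdh, Psat1 and Nupr1 slope up, while Hspa5, Calr and Xbp1 run nearly level, and heights of different genes come from different probes and are not comparable.

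The eIF2 kinases gave low or level signals. Perk (Eif2ak3) had signals of 1445 (GFP+++), 1255 (GFP+) and 1334 (GFP-), a log2 fold of 0.12 between the first and the last. Its 3 values lay within the probe set error, and its other 2 probe sets were under the floor. Eif2ak1, the haem-regulated kinase, gave 623, 596 and 452 (log2 0.46), but another probe set of it gave 237, 366 and 342 (log2 -0.53), so its direction was not settled by these arrays. Eif2ak2, the kinase Pkr that double-stranded RNA activates, passed the floor in GFP- alone (86.1, 98.4 and 122). Eif2ak4, the amino acid sensor Gcn2, likewise passed it in GFP- alone (47.0, 102 and 130). Their folds against GFP- could thus only lie below 0. The bounds put GFP- at least 1.17-fold above GFP+++ for Eif2ak2 and at least 1.24-fold for Eif2ak4. In log2 these were -0.23 and -0.31, about the pooled SD of 0.30. Interferon response markers, which Eif2ak2 is known to follow, summed to 611, 1754 and 1342 over the 5 on the array. The peak of that sum in GFP+ came from Ifit1 (252, 1102 and 463), whereas Ifit3, Oas1a and Irf7 were highest in GFP-. The part of these markers was not tested.

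Among the stress transcription factors, Atf5 did not differ between GFP+++ and GFP- by more than the probe set error. Its signal was 16838 (GFP+++), 13389 (GFP+) and 16967 (GFP-), with GFP+ the lowest, and the log2 fold was -0.01. Its order depended on the scaling. With median scaling GFP+++ was above GFP- by 0.40, and after quantile normalization GFP+++ and GFP+ were level, both 0.19 above GFP-. It had 1 probe set, so no second one could be set beside it. Atf4, the factor whose translation eIF2 phosphorylation raises, had signals of 6410, 4533 and 4147, highest in GFP+++. Its log2 fold was 0.63, and its second measurable probe set gave 0.92 (3136, 1734 and 1652).

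Ddit3, the Chop factor linked to prolonged stress, went the same way. Its signals were 3340, 2132 and 1752, a log2 fold of 0.93, and its second probe set gave 0.86 (410, 295 and 226). Atf3, a factor that Atf4 turns on, gave 197, 170 and 144 (log2 0.45), close to the floor. Cebpb, a C/EBP partner of Atf4 and Chop, gave 2850, 2562 and 2475 (log2 0.20), and its second probe set 718, 683 and 699 (log2 0.04), with GFP+ lowest. On the brightest probe sets the order was thus GFP+++ over GFP+ over GFP- for Atf4, Ddit3, Atf3 and Cebpb, and Atf4 and Ddit3 exceeded 2 pooled SDs (0.61) between GFP+++ and GFP-. Which genes did so depended on the scaling. After quantile normalization Atf4 (0.55) was below that distance and Atf3 (0.78) above it, and with median scaling Atf3 (0.86) and Cebpb (0.62) were above it and Atf4 (1.04) and Ddit3 (1.35) passed 2-fold.

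Nupr1, a stress-induced chromatin protein often counted as an Atf4 target, ran opposite to them. Its signals were 349 (GFP+++), 749 (GFP+) and 943 (GFP-), a log2 fold of -1.43, and its second probe set gave -1.35 (317, 694 and 809). It shares the letters TTGCATCA with Chac1 in the stretches above, and Chac1 went the other way. The part of these letters in either fold was not tested. Over the 6 factors the median log2 fold was 0.33, against 0.0090 for all genes. Relative to all genes it was 0.32 with both the trimmed-mean and the median scaling and 0.31 with quantile normalization.

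The median log2 fold of the 6 genes in the Atf4 target arm was 0.95, and all 6 lay above 0. Among all genes 50.7% lay above 0. Of the 6, 3 passed 2-fold, against 1.92% of all genes, and 4 passed 1.5-fold, against 9.31%. Sesn2, among the 3, was above the floor in GFP+++ alone, so its fold could only lie above 0. The arm leaves out Nupr1 (-1.43), often counted as an Atf4 target. It also leaves out the serine and one-carbon genes, where 3 of 5 were at least 2-fold lower and 2 lay above 0. Trib3, a pseudokinase that Atf4 and Chop induce and that feeds back on Atf4, had signals of 2953 (GFP+++), 1561 (GFP+) and 1196 (GFP-). That was 2.47-fold higher in GFP+++ (log2 1.30), and its second probe set gave 2701, 1558 and 1012 (log2 1.42). Across the alternatives in processing its log2 fold ran from 1.22 to 1.72.

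Chac1, an enzyme that degrades glutathione, had signals of 797, 476 and 382 on its only probe set. GFP+++ was 2.09-fold above GFP- (log2 1.06, from 1.06 to 1.48 across the alternatives). Ppp1r15a, the Gadd34 subunit that directs a phosphatase to eIF2 and so ends the response, had signals of 5286, 3407 and 2942. That was 1.80-fold higher, a log2 fold of 0.85 that passed 2-fold with median scaling (1.26). In these 3 genes GFP+ lay nearer to GFP- than to GFP+++.

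Sesn2, a sestrin that restrains mTORC1, stood out less firmly. Its brightest probe set gave 332 in GFP+++ and lay under the floor in GFP+ (58.2) and GFP- (62.7), so GFP+++ was at least 3.18-fold higher than either. Its other probe set gave 149, 184 and 56.0, which puts GFP+ highest. With a floor at the 65th percentile its log2 fold was 0.27, and with the median over its probe sets it was 1.09 against GFP- and 0.68 against GFP+.

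The remaining Atf4 targets differed little. Ddit4, a further brake on mTORC1, had signals of 4017, 3352 and 3201 (log2 0.33). Asns, asparagine synthetase, had signals of 1282, 1414 and 1189 (log2 0.11), with 0.27 on its second probe set. Both lay within about the pooled SD. The promoter of Asns holds a C/EBP-ATF core, with other letters than that of Chac1, and the part of this element in the folds was not tested. The summed signal of the 13 immature OSN markers was 100695, 69483 and 79854, and that of the 10 markers of dissociation and heat shock 24397, 25767 and 32161. The latter 10 had a median log2 fold of -0.80, with 2 above 0. At 2-fold 5 of the 10 were lower, or 2 with median scaling, against 12.4% and 1045 of 12184 for all genes. The part of both marker lists in the values of these Atf4 targets was not tested.

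**Figure D2:**
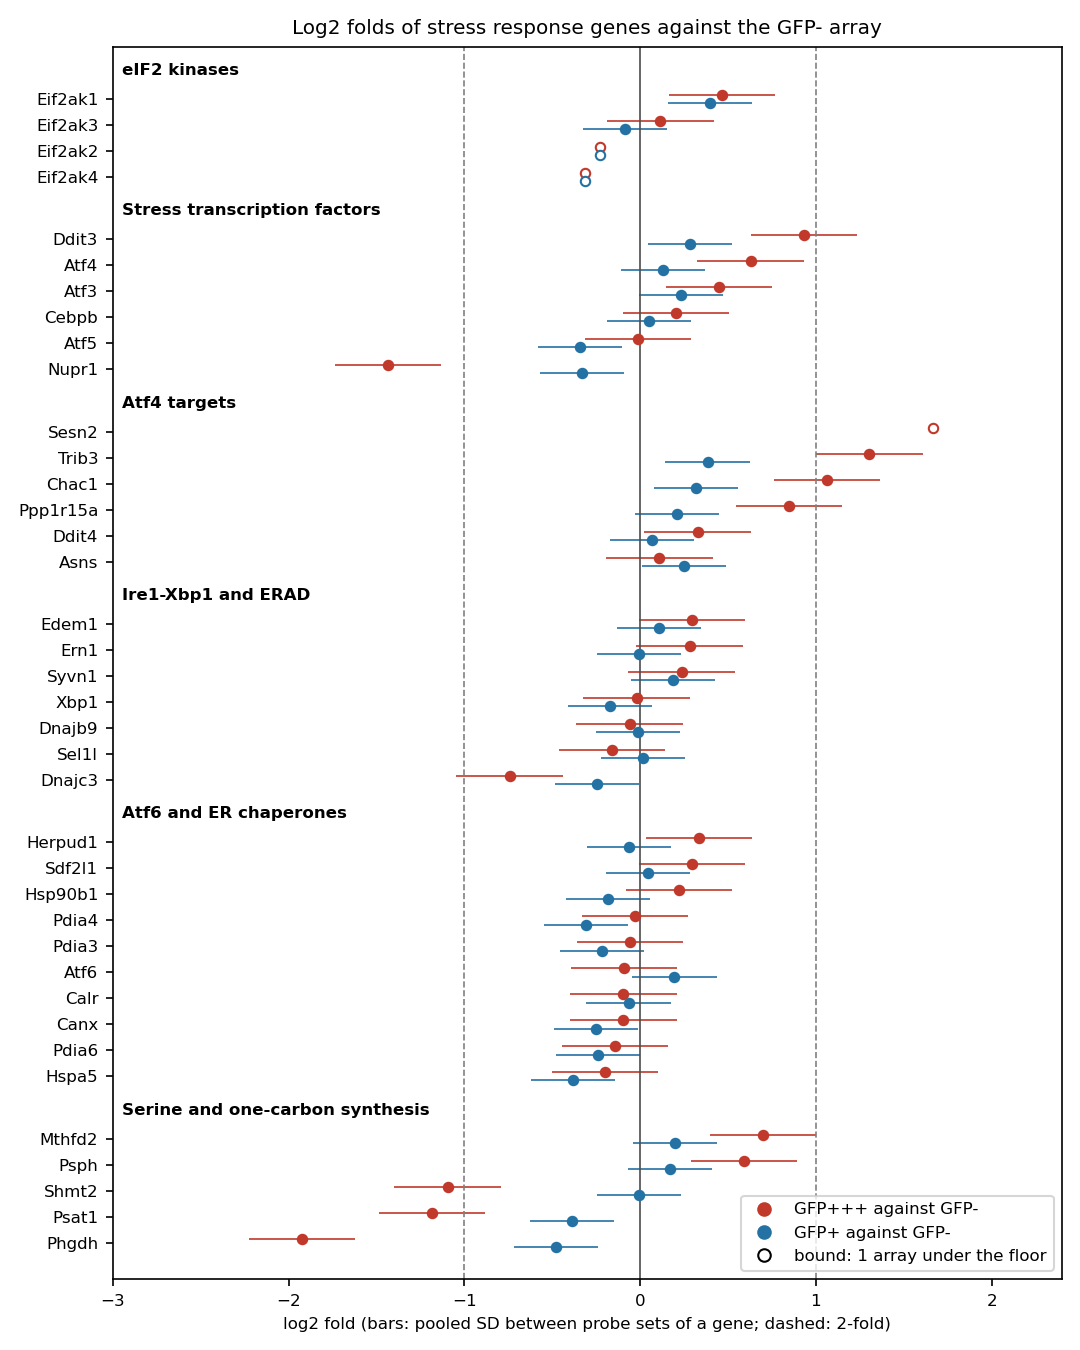
Log2 fold (x axis) of each gene (y axis, by arm) for GFP+++ against GFP- (red) and GFP+ against GFP- (blue), with bars for the pooled SD between probe sets of a gene, 0.30 and 0.24, open points for bounds, and dashed lines at 2-fold. Both comparisons share the GFP- array, 3 genes lie at or beyond 2-fold to the right and 4 to the left in red, and 0 in blue.

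In the Ire1-Xbp1 arm 0 of 7 genes passed 2-fold, against 1.92% of all genes higher and 12.4% lower. The arm lay near 0, with a median log2 fold of -0.02. Its sign turned with the scaling, to 0.40 when arrays shared a median and 0.016 with quantile normalization, while relative to all genes it was between -0.04 and -0.02. Xbp1, the factor that Ire1 activates by splicing, had signals of 9268, 8331 and 9394 (log2 -0.02), and its 3 other probe sets ran from -0.03 to 0.22. Ern1, Ire1 itself, gave 837, 686 and 689 (log2 0.28). Dnajb9, a co-chaperone that Xbp1 turns on and that holds Ire1 inactive, gave 6405, 6613 and 6678 (log2 -0.06). None of these exceeded the probe set error.

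Dnajc3, an ER co-chaperone also known as an inhibitor of Perk, was the lower one in this arm. Its signals were 1294 (GFP+++), 1825 (GFP+) and 2166 (GFP-), a log2 fold of -0.74. Its 4 other probe sets gave -0.79, -0.83, -0.92 and -1.34, so all 5 lay below 0, by at least 2 pooled SDs. With median scaling the log2 fold of Dnajc3 was -0.33, about 1 pooled SD. Among the genes of ER-associated degradation, Sel1l, the adaptor of the Hrd1 ligase, gave 2336, 2645 and 2613 (log2 -0.16). Syvn1, the Hrd1 ligase itself, gave 607, 587 and 515 (log2 0.24), with -0.14 on its second probe set. Edem1, which marks misfolded glycoproteins for removal, gave 1064, 933 and 867 (log2 0.29), but its second probe set gave 211, 404 and 442 (log2 -1.07). The direction of Edem1 therefore depends on the probe set.

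The chaperones formed the most even arm. All 10 genes lay between -0.20 and 0.34, with a median of -0.07. At 1.5-fold 0 passed, against 9.31% of all genes higher and 20.5% lower. With median scaling the median turned to 0.34, but relative to all genes it was -0.08 with both scalings and -0.14 with quantile normalization. Hspa5 (BiP), the main ER chaperone and a sensor of load, had signals of 9754, 8612 and 11208 (log2 -0.20). Hsp90b1 (Grp94) had 5285, 3993 and 4531 (log2 0.22). Calr, the lectin chaperone calreticulin, was at -0.10 (6657, 6794 and 7112), its membrane-bound relative Canx at -0.10 (6068, 5451 and 6484) and Pdia6 at -0.14 (2887, 2698 and 3191). Of the 7 members with an ER stress response element, 5 thus lay below 0, Dnajc3 included, and Hsp90b1 and Syvn1 above it, all but Dnajc3 within the pooled SD. Other probe sets of Hspa5 (0.24), Calr (0.11), Canx (0.03) and Pdia6 (0.32) had the opposite sign. With median scaling all 10 genes of the chaperone arm lay above 0.

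The disulfide isomerases Pdia3 (8193, 7348 and 8528) and Pdia4 (915, 754 and 934) had log2 folds of -0.06 and -0.03. Herpud1, a membrane protein of ER-associated degradation, had the highest fold of the arm at 0.34 (7003, 5304 and 5549), and its second probe set gave 0.34 as well. Its promoter is the one that carries both kinds of element, and their part in its fold was not tested. Sdf2l1, a cofactor of BiP, was at 0.30 (1580, 1329 and 1287). Atf6, the sensor, gave 1137, 1387 and 1211 (log2 -0.09). Of the 10 genes, 8 had a higher signal in GFP+++ than in GFP+, with folds under 1.5, where 47.9% of all genes did. After quantile normalization this held for 5 of the 10. Other probe sets of Hsp90b1 (-0.09), Canx (-0.33) and Pdia3 (-0.27) had the opposite sign here, while those of Hspa5, Pdia6 and Herpud1 had the same one.

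**Figure D3:**
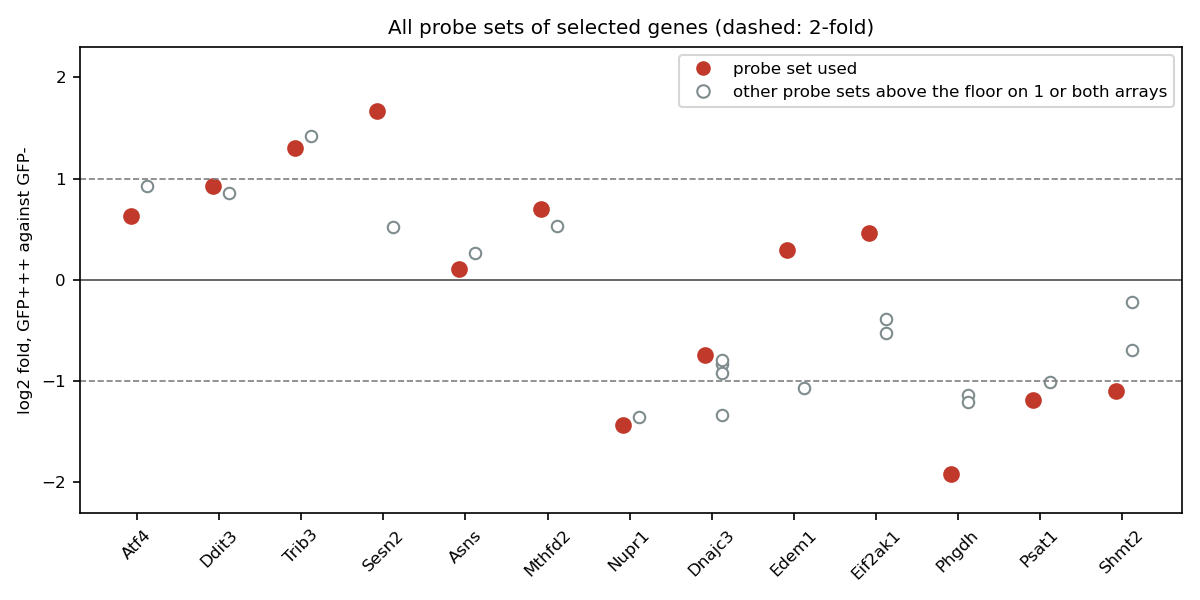
Log2 fold of GFP+++ against GFP- (y axis) for every probe set above the floor on at least 1 of these arrays, for 13 genes (x axis), with the probe set used in red and the others open, and dashed lines at 2-fold. The probe sets of Trib3, Ddit3, Atf4, Nupr1, Psat1 and Dnajc3 lie on 1 side of 0, whereas those of Edem1 and Eif2ak1 lie on both.

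The serine and one-carbon arm was split within itself. Phgdh and Psat1 catalyse the first steps of serine synthesis from a glycolytic intermediate, Psph the last, and Shmt2 and Mthfd2 pass the carbon unit of serine to folate in mitochondria. Phgdh had signals of 490 (GFP+++), 1336 (GFP+) and 1859 (GFP-), 3.79-fold lower in GFP+++ (log2 -1.92). All its probe sets carry the suffix _x_at, which marks possible binding to other transcripts, and its 2 others above the floor gave -1.14 and -1.21. Psat1 had signals of 597, 1036 and 1355, 2.27-fold lower (log2 -1.18), with -1.01 on its second probe set. With median scaling its log2 fold was -0.77.

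Shmt2 gave 198, 422 and 424 (log2 -1.10) on an _x_at probe set, but -0.70 on the plain one (174, 199 and 283). Psph and Mthfd2 ran the other way. Psph had signals of 883, 659 and 586 (log2 0.59) on 1 probe set. Mthfd2 had 1287, 910 and 794 (log2 0.70), with 0.53 on its second probe set. The calls at 2-fold turned with the scaling. With median scaling Phgdh alone was at least 2-fold lower, with Psat1 at -0.77 and Shmt2 at -0.68, while Psph (1.01) and Mthfd2 (1.11) were at least 2-fold higher, and after quantile normalization Shmt2 was at -0.87. Neighbouring steps of the same route thus differed in direction, and the median of the 5 genes, -1.10, describes only the 3 lower ones. Without probe sets ending in _x_at or _s_at, Phgdh had no value and the median was -0.054.

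Markers of several other cells were lower in GFP+++ along with Phgdh, Psat1 and Nupr1. The summed signal of the 8 sustentacular markers was 39294 (GFP+++), 55712 (GFP+) and 78015 (GFP-). Their median log2 fold was -1.34, and 5 were lower by 2-fold or more, or 3 with median scaling. As many as 12.4% of all genes were lower by 2-fold or more, and 1045 of 12184 with median scaling. The 7 markers of dividing cells measured summed to 8031, 14295 and 19155, with 6 at least 2-fold lower, or 4 with median scaling. The 4 glial markers measured summed to 1783, 6402 and 9631, and all 4 were at least 2-fold lower. The 9 gland and secretory markers summed to 7248, 28463 and 52171, with all 9 at least 2-fold lower and 3 under the floor in GFP+++. Basal, macrophage and neutrophil, and fibroblast markers were lower as well, with median log2 folds of -2.08, -4.30 and -4.30. The part of all these markers in the lower serine genes was not tested.

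Further genes of the pathway, listed by textbook role, were set beside the 6 arms. Of 22 genes on the array that other work links to Atf4, 20 could be compared, with a median of 0.26. Of the 20, 17 lay above 0, where 50.7% of all genes did. With median scaling 4 were at least 2-fold higher, where 1129 of all 12184 genes were, and after quantile normalization 1 was, where 367 were. With trimmed-mean scaling 0 were higher at 2-fold, against 1.92% of all genes, and 1 (5.00%) was lower, against 12.4%. The lower one was Slc1a5, a glutamine transporter, with signals of 132, 325 and 403 (log2 -1.60). The brightest were Cebpg, a C/EBP partner of Atf4 (9833, 6404 and 7837, log2 0.33), and Slc3a2, a shared subunit of amino acid transporters (5104, 5123 and 4646, log2 0.14). At 1.5-fold, 4 of the 20 were higher (20.0%), against 9.31% of all genes: Vldlr (0.94), Bbc3 (0.86), Cth (0.74) and Cdkn1a (0.74), chosen for naming after their values were seen.

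The 19 cytosolic tRNA synthetases measured, many of which are Atf4 targets under amino acid shortage, had a median of 0.15. At 2-fold 0 passed either way, against 1.92% of all genes higher and 12.4% lower. The brightest, Gars and Nars, were at 0.37 and 0.14. The 8 subunits and regulators of eIF2 and eIF2B had a median of 0.30, with 7 above 0, where 50.7% of all genes lay. At 2-fold 0 passed, or 1 upward with median scaling, where 1129 of all 12184 genes did. Among them Eif2s2 gave 6937, 5416 and 5434 (log2 0.35) and Eif2s3x 5981, 5646 and 6494 (log2 -0.12).

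The wider ER genes resembled the chaperone arm in their medians but spread further. Of 21 measured ER folding genes, with a median of -0.15 that turned to 0.26 with median scaling, Pdia2, a disulfide isomerase, was 2.62-fold higher in GFP+++ (338, 147 and 129) and 0 were at least 2-fold lower. The shares of all genes were 1.92% higher and 12.4% lower. With median scaling 2 of the 21 were at least 2-fold higher, where 1129 of all 12184 genes were. The brightest of them were Ppib, a prolyl isomerase (10443, 8899 and 10847, log2 -0.05), and P4hb, the classic disulfide isomerase (6318, 6512 and 8147, log2 -0.37). The 11 genes of ER-associated degradation that could be compared, of 12 on the array, had a median of 0.03. It turned to -0.015 with quantile normalization. At 2-fold 0 passed either way, against 1.92% of all genes higher and 12.4% lower. Vcp, the extracting ATPase, was at -0.04 and Selenos, an ER membrane selenoprotein, at 0.06.

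The 8 other ER stress sensors and their proteases had a median of -0.44, and 7 lay below 0, against 5 with median scaling. With trimmed-mean scaling 50.7% of all genes lay above 0. Creb3l2, a sensor related to Atf6 and used in secretory cells, was 2.54-fold lower in GFP+++ (344, 592 and 875). Creb3l1, a close relative, was 2.10-fold lower than in GFP+ (240, 503 and 396). With median scaling 0 of the 8 passed 2-fold in either comparison, and after quantile normalization 0 did against GFP+. With median scaling 1045 of all 12184 genes were at least 2-fold lower against GFP- and 767 of 11976 against GFP+. After quantile normalization 895 of 11975 were against GFP+. Mbtps1 and Creb3 gave -0.30 and -0.05. Gland and secretory markers moved with these genes, as given above, and their part was not tested.

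Of 12 folate and one-carbon genes on the array beyond the arm, 11 could be compared, with a median of -0.81. At 2-fold 3 (27.3%) were lower, against 12.4% of all genes, and 1 (9.09%) was higher, against 1.92%. With median scaling 0 passed 2-fold downward, where 1045 of all 12184 genes did. With quantile normalization 1 did, where 1306 of all genes did. Gldc, of the glycine cleavage system, gave 395, 1059 and 958 (log2 -1.28). Shmt1, the cytosolic partner of Shmt2, gave 125, 195 and 271 (log2 -1.12), and Mthfd1l gave 159, 289 and 336 (log2 -1.08). Mthfs, which returns a stored folate to use, gave 451, 179 and 109 (log2 2.05). The 2 brightest, Gcsh and Mthfd2l, lay above 0 at 0.23 and 0.50. Opposite directions within this metabolism were thus seen outside the 5 genes of the arm as well.

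**Figure D4:**
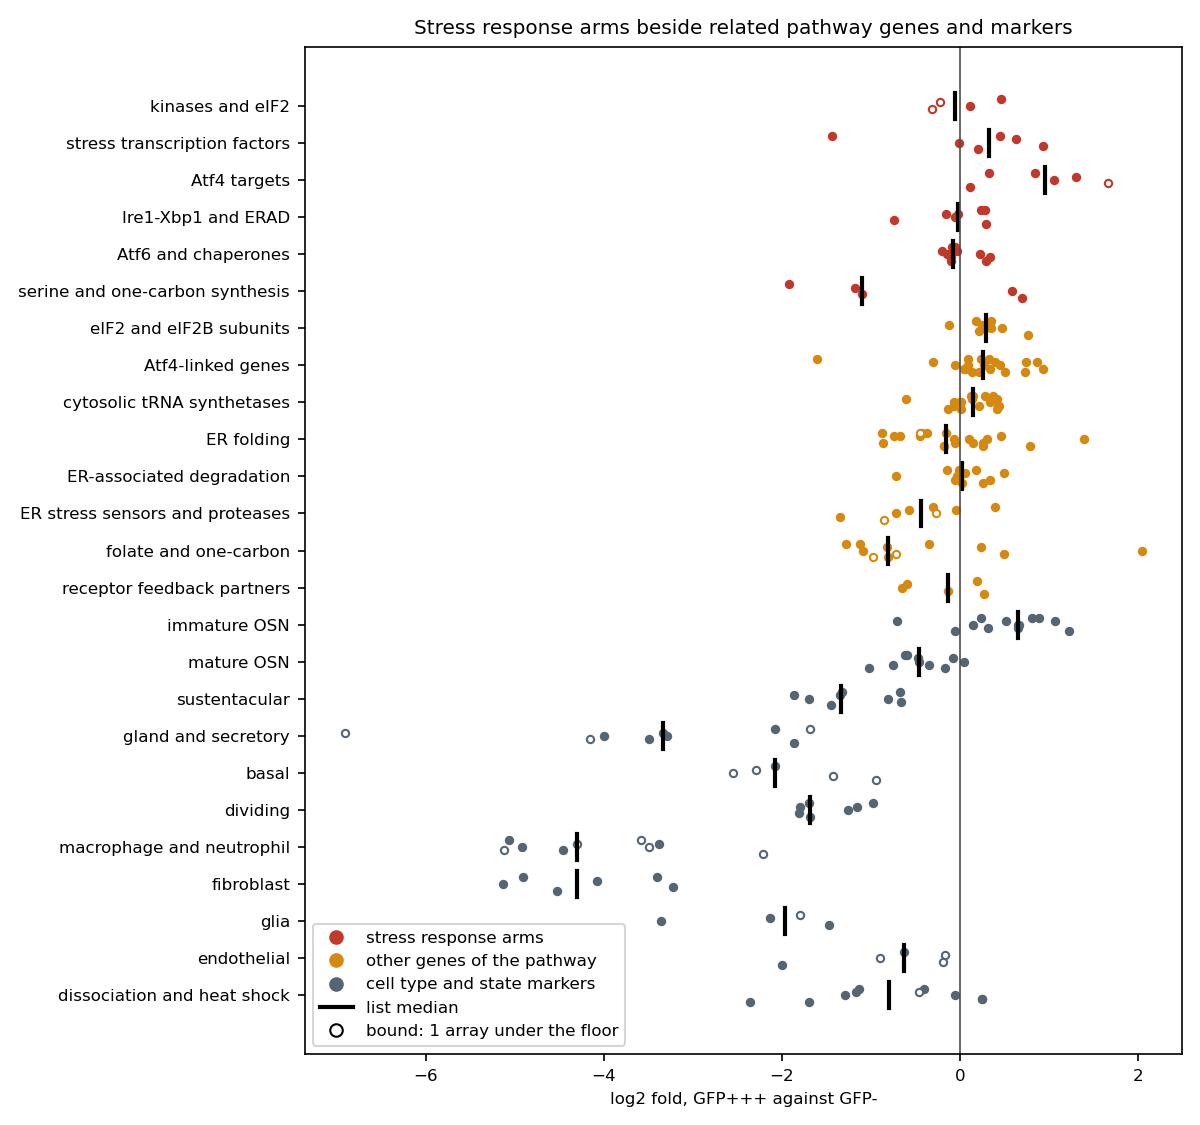
Log2 fold of GFP+++ against GFP- (x axis) for the genes of the 6 arms (red), further pathway lists (orange) and marker lists (grey), with list medians as black bars and bounds as open points; 3 marker lists with few measured genes are not drawn. The chaperone arm spans -0.20 to 0.34, the Atf4 targets lie to the right with a median of 0.95, and the serine arm and the folate genes fall on both sides.

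Of the partners of the receptor-driven Perk and Atf5 signal, 5 of 7 listed genes were measured. Kdm1a, the demethylase Lsd1 that is needed to start receptor choice, gave 5203, 4274 and 4541 (log2 0.20). Lhx2, a factor of receptor enhancers, gave 7708, 5592 and 6375 (log2 0.27), and its cofactor Ldb1 gave 1477, 1356 and 1619 (log2 -0.13). Adcy3, whose appearance ends the signal, had signals of 3653 (GFP+++), 7578 (GFP+) and 5522 (GFP-). It was thus 2.07-fold lower in GFP+++ than in GFP+. Reep1, a receptor trafficking helper, gave 1047, 2524 and 1638, 2.41-fold lower in GFP+++ than in GFP+. Neither call was kept with median scaling, where 0 of the 5 genes were at least 2-fold lower in this comparison, against 767 of all 11976 genes. Atf5 was 1.26-fold above GFP+ in GFP+++ (log2 0.33, about the pooled SD of 0.30), and level with it after quantile normalization. Ddit3 was 1.57-fold and Trib3 1.89-fold above GFP+. Mature OSN markers, which include Adcy3, followed the same order as Adcy3 in their sum, as given above. Of the 10 measured, 7 were higher in GFP+ than in GFP-, while S100a5, Stoml3 and Cngb1 were highest in GFP-.

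GFP+ against GFP- gave smaller differences. Of 37 genes compared, 0 were higher by 2-fold, against 0.607% of 12196 genes, and 0 were lower by 2-fold, against 0.804%. No gene passed 1.5-fold, which 4.67% of all genes did upward and 7.13% downward. The pooled SD between probe sets was 0.24 here. Phgdh had the lowest log2 fold (-0.48), followed by Psat1 (-0.39), Hspa5 (-0.38), Atf5 (-0.34) and Nupr1 (-0.33). Atf5 turned to 0.19 after quantile normalization. Eif2ak1 (0.40), Trib3 (0.38) and Chac1 (0.32) were the highest, and the other probe sets of Eif2ak1 above the floor gave 0.10 and -0.17. Of 10 genes in the Atf6 and chaperone arm, 8 lay below 0, or 6 with median scaling and 7 after quantile normalization. Their median was -0.20, or -0.19 relative to all genes and -0.05 with quantile normalization. Other probe sets of Hsp90b1 (0.28), Calr (0.06), Canx (0.07), Pdia3 (0.07) and Herpud1 (0.03) lay above 0, while those of Hspa5 and Pdia6 lay below it. Of 24 members with another measurable probe set, 13 kept the same sign on all of them in this comparison.

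GFP+++ against GFP+ used the strongly and weakly fluorescent cells directly. Of 36 genes compared, 1 (2.78%) was higher by 2-fold or more, against 0.985% of 11881 genes, and 3 (8.33%) were lower by as much, against 9.34%, so the lower share was near that of all genes. At 1.5-fold, 5 (13.9%) were higher, against 6.39% of all genes, and 4 (11.1%) were lower, against 18.2%. The higher gene past 2-fold was Sesn2, for which the second probe set gave the opposite order. On its brightest probe set Sesn2 passed the floor in GFP+++ alone, so its fold could only lie above 0. Trib3 (log2 0.92), Chac1 (0.74), Ddit3 (0.65) and Ppp1r15a (0.63) lay between 1.5-fold and 2-fold, and with median scaling Trib3 (1.20) and Chac1 (1.02) passed 2-fold. Those at least 2-fold lower were Phgdh (-1.45), Nupr1 (-1.10) and Shmt2 (-1.09), and with median scaling Phgdh (-1.17) alone was. On its plain probe set Shmt2 was at -0.19.

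Among genes above the floor on all arrays, GFP+ lay between GFP+++ and GFP- for all 7 that were higher in GFP+++ by 1.5-fold or more and for all 5 that were lower. Of all such genes, this held for 78.8% of 1084 higher and 83.9% of 1575 lower ones. By peak, 19 of the 38 genes were highest in GFP+++, 3 in GFP+ and 16 in GFP-. Of all genes above the floor on at least 1 array, 39.1% were highest in GFP+++, 24.8% in GFP+ and 36.1% in GFP-. Of the 6 Atf4 targets 5 peaked in GFP+++ and Asns in GFP+, whereas 6 of the 10 genes of the chaperone arm peaked in GFP-.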

How the data were processed

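RNA of 3 sorted fractions was hybridised to Affymetrix mouse arrays, 1 per fraction. MAS5 is the tool named in the submitters' processing notes, and the authors deposited 1 linear intensity value per probe set. No version or setting of it was found in the labels. Each array had a 2% trimmed mean of 500.0, and no detection calls were used. Of 45101 probe sets, 34945 carried 1 gene symbol and 34741 of these were matched by Entrez identifier to RefSeq (GRCm38.p6). Control probe sets (64) were left out of the genes but kept in the scaling and in the floor. Each gene was represented by its brightest probe set over the 3 arrays. Signals under the pooled median of 104 were raised to it, log2 folds were taken between arrays, and 2-fold was the threshold. A gene below the floor in both fractions was not compared, and one below it in 1 fraction has a bound for its fold. Computation used Python 3.11.15 with pandas 2.3.3. The fold rule was tested on simulated arrays.

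The members, arms and lists were chosen with earlier results of these data known. All members are described. Of the further lists, members at least 2-fold apart in a comparison and the 2 brightest are named. Lists hold cell type and state markers too: those of basal, macrophage and neutrophil, fibroblast, endothelial, plasma and B cell, erythroid and interferon genes had median log2 folds of -2.08, -4.30, -4.30, -0.63, -1.11, -2.25 and -0.94 in GFP+++ against GFP-. Alternatives were median scaling, quantile normalization, other floors, other probe set rules and a 1.5-fold threshold.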

Additional observations from a re-analysis of the deposited data

How the results depend on the processing

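No paired analysis was possible because each group has 1 array. In GFP+++ against GFP-, median scaling gave 8 genes at least 2-fold higher and 2 lower, where 1129 and 1045 of all 12184 genes were. The medians were then 0.74 for the stress transcription factors, 1.37 for the Atf4 targets and 0.40 for Ire1-Xbp1. They were 0.34 for Atf6 and the chaperones and -0.68 for serine and one-carbon synthesis. Relative to all genes these medians were 0.32, 0.95, -0.02, -0.08 and -1.10. The kinase median relative to all genes went from -0.07 to -0.18, with bounds for 2 of its 4 genes. Genes with a bound moved by less than others (Sesn2 from 1.67 to 1.91, Trib3 from 1.30 to 1.72). In GFP+++ against GFP+ median scaling gave 3 higher and 1 lower, where 416 and 767 of all 11976 genes were. Quantile normalization gave 1 lower, where 895 of all 11975 genes were. A floor at the 65th percentile gave medians against GFP- of 0.29 for the kinases, 0.59 for the Atf4 targets and -0.62 for the serine arm in GFP+++, 0.16 for the kinases in GFP+, and 0 genes higher in GFP+++ against GFP+. The median over probe sets gave -0.70 for the serine arm against GFP- and 0 genes higher in GFP+++ against GFP+. Without _x_at and _s_at probe sets, 2 genes were lower in GFP+++ than in GFP- and 1 than in GFP+, and the serine medians were -0.054 and 0.11. The 1.5-fold threshold gave 8 higher genes against GFP- and 5 against GFP+. No gene past 2-fold changed sign under any of these. Where no cause is given it was not tested. Signals near the floor, as for Sesn2, Atf3, Eif2ak2 and Eif2ak4, limit what the arrays can show.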
